A study of Mus musculus with 58 samples.

Results

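Inserts listed with more than 1 spliced form were examined in a library of 16461 sequences of 175 nt. Each sequence was placed behind a promoter in mouse embryonic stem cells so that its RNA could be counted by sequencing (INSERT-seq). The RNA reads had been counted on an unspliced reference for every insert and on spliced references, which lack an internal stretch, for 2404 of them. The 145 inserts with 2 or more spliced references were taken, 6.03% of those 2404. Of these, 138 had 2 spliced forms and 7 had 3, which made 297 forms.

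The cells were F121-9, a hybrid of the 129 and CAST mouse backgrounds. RNA was counted in 17 libraries from 2 integration sites. At the lincRNA gene 4930461G14Rik (14Rik; chromosome 9, 58455173 to 58469623 in GRCm38), inserts sat on the CAST allele of wild-type cells, 102 nt after the start site, and total RNA was read in 3 libraries. At Pou5f1, which encodes the pluripotency factor Oct4 (chromosome 17, 35506032 to 35510777 in GRCm38), inserts sat on the 129 allele of a reporter line, 157 nt after the upstream antisense start. That line carries mKate2, a red fluorescent protein, behind the insert and TagBFP2, a blue one, at the end of Oct4. In its untreated cells total RNA was read in 4 libraries (1 to 4), chromatin RNA in 2 libraries that carry the numbers 2 and 3, and nascent RNA from a nuclear run-on of 15 min in 2 libraries. The run-on libraries carry the numbers 1 and 2, and the first shares its genomic DNA library with total RNA library 4. The labels do not say whether chromatin and total RNA libraries of the same number come from the same cells. Cells of the same line received 40 nM of an siRNA pool against the exosome subunit RRP40 (siRRP40) or of a control siRNA without a target (siNT) for 48 h, and total RNA was read in 3 libraries each (A to C). The labels do not say that replicates came from separate cultures, so p-values measure the spread between these libraries, which may be technical. Each library mixes the cells of all inserts, and no marker of the cells themselves is read.

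Splicing joins a donor site at the start of an intron to an acceptor site at its end. Where several donors or acceptors compete, a transcript yields alternative forms, and neighbouring sites a few nucleotides apart are a common source of them. Total RNA holds mainly mature transcripts, chromatin RNA is enriched for transcripts still attached to their template, and run-on RNA for those still being made. The nuclear exosome, of which RRP40 is a structural subunit, degrades unstable nuclear RNA, upstream antisense transcripts among them.

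The forms of these inserts lacked 21 to 155 nt, with a median of 104 nt. Forms of the 2259 inserts with a single spliced reference covered the same span, with a median of 99 nt. By length removed, 29 forms lacked at most 69 nt, 77 lacked 70 to 94 nt, 93 lacked 95 to 119 nt and 98 lacked 120 nt or more. The 2 forms of an insert were often close in length. Over the 138 inserts with 2 forms the difference ran from 1 to 116 nt, with a median of 14.5 nt. It was 10 nt or less in 55 inserts and more than 30 nt in 37. A difference of 4 nt was the most frequent, with 13 inserts, followed by 3 nt and 12 nt with 8 inserts each, 5 nt with 7 and 6 nt with 6. In 54 inserts (39.1%) it was a multiple of 3. The references give lengths only. Whether 2 forms differ at the donor, at the acceptor or at both was not analysed here, and the sequences of the inserts were not used here.

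Many of these inserts recurred as sets with identical lengths. Of the 145, 30 inserts in 13 sets shared all their removed lengths with at least 1 other member, which gave 22 pairs. The insert numbers of 11 of the 22 pairs were 120 or a multiple of 120 apart, against 0.92% of all 10440 pairs of members. Numbers of 20 of the 22 pairs were a multiple of 6 apart, against 16.8% of all pairs. The triplet sequence_12533, sequence_12653 and sequence_12773 lacked 86 or 153 nt. Another triplet, sequence_12927, sequence_13167 and sequence_13287, lacked 119 or 128 nt, and the quartet of sequence_15107, sequence_15113, sequence_15119 and sequence_15131 lacked 79 or 84 nt. Members of a set may share sequence, which was not tested. Each was still counted as an insert of its own, so counts of members may not be counts of independent sequences.

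RNA libraries held 2665226 (total RNA library 1 at Pou5f1) to 94099800 reads (library 4) on the references. Over the 17 libraries the members had 34 to 714964 spliced reads each, with a median of 8986. Every member was spliced in at least 1 library, but 9 of the 297 forms had no read in any. Among these was the form of sequence_13717 lacking 77 nt, against 11910 reads of its form lacking 81 nt. Another was the third form of sequence_13988, lacking 132 nt, against 12392 reads of its other forms. Every count was even, so a floor of 3 read pairs, or 6 reads, was used for counts of 0. Floors cover counting error only.

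In total RNA most of the members with enough spliced reads used more than 1 of their forms. A member was counted in a group when it had at least 20 spliced reads in each library, and a form was called used at a mean share of at least 10% of the spliced reads of its insert. At 14Rik, 59 of 96 members used 2 or more forms. In untreated Pou5f1 cells the count was 65 of 72 in total RNA, 31 of 55 in chromatin RNA and 58 of 78 in run-on RNA. It was 72 of 100 in siRRP40 and 76 of 107 in siNT cells. The main form took a median of 81.7% of spliced reads at 14Rik, 72.1% in Pou5f1 total RNA, 86.9% in chromatin RNA, 72.0% in run-on RNA, 77.2% in siRRP40 and 75.9% in siNT cells. These groups differ in depth, in the number of libraries and in the members that passed, and the differences between them were not tested. The share of the main form also varied between libraries. Its median SD over the 4 Pou5f1 total RNA libraries was 16.6 percentage points, against 7.27 at 14Rik, 6.01 in siRRP40 and 7.29 in siNT cells, with 3 libraries each.

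Members that used 2 or more forms had a smaller median difference in length than those that used 1, which was not tested. In Pou5f1 total RNA the main and second form of the 65 members that used 2 or more forms differed by a median of 12 nt, and those of the 7 members that used 1 differed by 47 nt. Few members are in the second class there. In chromatin RNA the medians were close, 12 and 16.5 nt (31 and 24 members), and in run-on RNA they were 11.5 and 33.5 nt (58 and 20). The medians were 12 and 21 nt at 14Rik (59 and 37 members), 12 and 28.5 nt in siRRP40 (72 and 28) and 12 and 20 nt in siNT cells (76 and 31). Forms that differ by a few nucleotides share nearly all of their sequence, so how the aligner divided reads between them is uncertain. The main form was not regularly the one that lacked most. The longest stretch was the one removed in the main form of 41 of 96 members at 14Rik. In untreated Pou5f1 cells this held for 26 of 72 in total RNA, 25 of 55 in chromatin RNA and 32 of 78 in run-on RNA. It held for 51 of 100 in siRRP40 and 57 of 107 in siNT cells.

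The members with the most even use of 2 forms in Pou5f1 total RNA, among the 29 with at least 200 spliced reads in each of its 4 libraries, were sequence_12380, sequence_12220, sequence_10148 and sequence_11027. The form of sequence_10148 lacking 121 nt, against 101 nt in its other form, was close to even in every library. It took 42.1%, 40.6% and 40.6% of spliced reads in the 14Rik libraries, and 46.9%, 49.4%, 51.5% and 38.0% in total RNA libraries 1 to 4. In chromatin RNA it took 36.4% and 48.4%, and in run-on RNA 40.8% and 39.3%. In siRRP40 cells it took 39.9%, 46.3% and 46.8%, and in siNT cells 46.2%, 44.8% and 46.1%. Over the 17 libraries its share ran from 36.4% to 51.5%. The form of sequence_12220 lacking 128 nt, 4 nt less than its other form, averaged 56.7% ± 8.27 at 14Rik (SD, n = 3) and 53.2% ± 4.25 in Pou5f1 total RNA (n = 4). Its average was 48.1% ± 4.56 in siRRP40 and 49.1% ± 4.43 in siNT cells (n = 3 each). The forms of sequence_12380, 6 nt apart, were as even on average and varied far more. Its form lacking 107 nt took 51.9%, 65.8%, 28.0% and 48.6% in the 4 Pou5f1 total RNA libraries, and 80.4% and 32.5% in the run-on libraries.

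The member with the most spliced reads in Pou5f1 total RNA, sequence_12189, was nearly always spliced there (99.0% to 100% of its reads), yet its 2 forms traded places between libraries. The form lacking 126 nt, 6 nt more than the other, took 72.5%, 18.2%, 13.9% and 59.3% of spliced reads in total RNA libraries 1 to 4. It took 18.5% and 8.14% in chromatin RNA libraries 2 and 3, and 70.1% and 24.7% in run-on RNA. At 14Rik it took 77.0%, 85.0% and 83.2%. In siRRP40 cells it took 71.0%, 57.7% and 60.6%, and in siNT cells 66.3%, 53.7% and 75.3%. Libraries 2 and 3 were low in both total and chromatin RNA, and the second run-on library was low, while the other libraries lay between 53.7% and 85.0%. The chromatin values rest on at least 950 spliced reads each.

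Libraries differed in how well they agreed on the forms. For pairs of libraries, the share of the form with the longest removed stretch was correlated over the members with at least 100 spliced reads in both. These correlations are across inserts, some of which may share sequence, and are given as a description. Pearson's r was 0.837 to 0.893 between 14Rik libraries (82 to 92 members), 0.350 to 0.698 between Pou5f1 total RNA libraries (39 to 75), 0.752 between the 2 chromatin libraries (32) and 0.481 between the 2 run-on libraries (40). It was 0.861 to 0.934 within siRRP40, 0.778 to 0.887 within siNT and 0.762 to 0.889 across siRRP40 and siNT libraries. Total RNA library 4 correlated at 0.350 to 0.628 with total RNA libraries 1 to 3, at 0.651 with run-on library 1 and at 0.443 with run-on library 2. Its r was 0.612 to 0.664 with the siNT libraries, 0.550 to 0.603 with siRRP40 and 0.452 to 0.605 with 14Rik. With the chromatin libraries it was 0.288 and 0.482. Of the 41 members with at least 20 spliced reads in all 17 libraries, 19 had the same main form in all 6 groups and 8 in each library.

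Whether mature RNA differs from nascent RNA in the forms it holds was asked by setting total against run-on RNA at Pou5f1. Only total RNA library 4 is known to share genomic DNA with a run-on library, so kind of RNA and experiment cannot be fully told apart. No member passed the test for a change in form use, though a few had very different shares. The main form was the same in 38 of the 61 members counted in both groups, and 8 of the other 23 had a main form above 60% in both. Each form share was tested as the odds of its reads against the other spliced reads of its insert, with edgeR's quasi-likelihood test and Benjamini-Hochberg adjustment over all 1920 rows with at least 20 reads in each of the 8 untreated Pou5f1 libraries. Of those rows, 1869 held the spliced against unspliced reads of all inserts with a spliced reference, and 51 held form shares of 47 members. Members too shallow in at least 1 of these libraries were not tested. The background was 8 of 1920 rows called (0.417%). Of the 51 form rows, 0 were called, 4 had an unadjusted p under 0.05, and limma called 2 and DESeq2 7. The 2 groups did not overlap in 7 form rows, 3 higher and 4 lower in total RNA, 13.7% of the form rows, against 40.9% of all rows.

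The form of sequence_03906 lacking 108 nt, the long alternative to a form lacking 30 nt, dominated total RNA and not run-on RNA. It took 98.4%, 100%, 99.7% and 80.0% of spliced reads in total RNA libraries 1 to 4, against 35.4% and 26.0% in the run-on libraries. The groups did not overlap, and library 4, the nearest to run-on RNA, shares its genomic DNA library with run-on library 1. The means were 94.5% ± 9.70 (SD, n = 4) and 30.7% ± 6.63 (n = 2), a log2 odds change of 7.79 (SE 2.86) that edgeR did not call (adjusted p = 0.136; 0.00103 to 0.878 over the alternatives). The form of sequence_12834 lacking 89 nt, against 82 nt in its other form, had the opposite pattern. It took 6.19%, 31.2%, 3.02% and 41.3% in total RNA, against 92.0% and 96.2% in run-on RNA. The log2 odds change was -6.70 (SE 2.20), also not called by edgeR (adjusted p = 0.108; 0.000122 to 0.757 over the alternatives). Limma and DESeq2 called both forms. Over the 51 form rows, 25 were higher and 25 lower in total RNA, and 14 differed by more than 20 points.

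The extent of splicing was higher in total RNA for most members, although none passed the test. They had a higher spliced share of reads in total than in run-on RNA in 107 of 116 inserts, by a median of 16.2 points, and inserts with a single spliced form in 1432 of 1753, by a median of 12.1 points. EdgeR called 0 of 116 members and 8 of all 1869 spliced share rows (0.428%). Of the members 36 had an unadjusted p under 0.05, and limma called 22 and DESeq2 52, which makes 31.0%, 19.0% and 44.8% of them. Among the 1753 inserts with a single form the shares were 27.5%, 16.8% and 36.9%, and members were not tested against them. The groups did not overlap in 59 members that were higher and 1 that was lower in total RNA, against 41.6% of all spliced share rows. Spliced reads made up 58.6%, 33.5%, 55.1% and 31.6% of the reads of sequence_01731 in total RNA libraries 1 to 4, against 1.27% and 0.96% in run-on RNA. The groups stood far apart (log2 odds change 6.16, SE 1.24, edgeR adjusted p = 0.0517; 3.98e-09 to 0.482 over the alternatives). Its form lacking 95 nt took 52.1%, 42.8%, 26.1% and 40.8% of spliced reads in total RNA, against 24.2% and 31.8% in run-on RNA, so the groups overlapped in form use while they stood apart in extent. The opposite case was sequence_03166, of which 2.13%, 0%, 0% and 3.50% of reads were spliced in total RNA libraries 1 to 4, against 34.1% and 35.4% in run-on RNA (log2 odds change -7.52, SE 2.88, edgeR adjusted p = 0.137; 0.00308 to 0.561 over the alternatives).

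Total RNA and chromatin RNA of the same line had the same main form in 46 of 50 members counted in both. The shares themselves differed: over the form rows tested, the group means were a median of 16.8 points apart, against 9.57 points between total and run-on RNA. Single libraries did not show this order. Over members with at least 100 spliced reads in both, 8 pairs of total and chromatin libraries differed by medians of 8.15 to 25.3 points (median r 0.642). The 8 pairs of total and run-on libraries differed by medians of 15.6 to 31.0 points (median r 0.283). Total RNA here includes libraries 1 and 4, whose numbers no chromatin library carries. Between the libraries numbered 2 the share of the longest-removal form differed by a median of 9.67 points over 44 members with at least 100 spliced reads in both libraries, and by more than 20 points in 14. Between those numbered 3 the median was 8.15 points over 38 members, with 10 above 20. Between total RNA library 4 and run-on library 1 the median was 16.9 points over 50 members, with 22 above 20. In the fit, 24 of 1920 rows (1.25%) were called between total and chromatin RNA. Of the 51 form rows edgeR called 0, with 5 at an unadjusted p under 0.05, limma called 1 and DESeq2 10. The groups did not overlap in 16 form rows, 7 higher and 9 lower in total RNA, 31.4% of the form rows, against 42.9% of all rows.

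The form with the smallest p among those higher in total RNA was in sequence_13369, which has forms lacking 131, 136 and 146 nt. The form lacking 131 nt took 19.1%, 15.5%, 22.0% and 26.2% of spliced reads in total RNA, against 0% in both chromatin libraries, where it had 0 of 156 spliced reads. A count of 0 there allows a share of up to 3.85%. EdgeR did not call it (adjusted p = 0.104; 0.00333 to 0.496 over the alternatives), and DESeq2 did. In the other direction the form of sequence_03715 lacking 87 nt took 72.7%, 50.9%, 100% and 86.6% in total RNA, against 100% in both chromatin libraries (edgeR adjusted p = 0.245; 0.0677 to 0.694 over the alternatives), and the groups overlapped.

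As against run-on RNA, members were spliced to a greater extent in total than in chromatin RNA, in 112 of 116 inserts and by a median of 16.7 points, and inserts with a single form in 1461 of 1753, by 13.8 points. EdgeR called 1 member, higher in total RNA, and 24 of all 1869 spliced share rows (1.28%). Non-overlapping values were found in 50 members, all of them higher in total RNA, against 43.2% of all spliced share rows. The called member was sequence_13477, with 27.3%, 5.06%, 13.9% and 34.7% of its reads spliced in total RNA, against 0 of 3584 reads in chromatin RNA, which allows up to 0.167%. Its adjusted p was 0.0496 by edgeR and ran from 2.10e-06 to 0.296 over the alternatives. The call was lost with either chromatin library left out, with either run-on library left out, and without total RNA library 1, 3 or 4. It was also lost with the replicate number as a block (edgeR adjusted p = 0.296). The member with the smallest p among those lower in total RNA, sequence_03018, rests on a single library. It was 12.6%, 1.41%, 4.59% and 3.16% spliced in total RNA, against 4.14% and 100% in chromatin RNA (edgeR adjusted p = 0.509; 0.0400 to 1.0 over the alternatives).

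By group means, chromatin and run-on RNA were the furthest apart in form shares of these 3 kinds. The median was 26.5 points, but no row passed the test. Between single libraries the median difference was 16.6 to 27.1 points over 4 pairs, within the range of total against run-on RNA. The main form was the same in 28 of 48 members. EdgeR called 0 of 1920 rows (0%). Of the 51 form rows 8 had an unadjusted p under 0.05, limma called 0 and DESeq2 4, and 27 did not overlap between the groups, 11 higher and 16 lower in chromatin RNA, 52.9% of the form rows, against 40.6% of all rows. Each group has 2 libraries. The form of sequence_03906 lacking 108 nt took 100% in both chromatin libraries (160 spliced reads in all), against 35.4% and 26.0% in run-on RNA (edgeR adjusted p = 0.489; 0.0123 to 1.0 over the alternatives). The form of sequence_12533 lacking 153 nt took 7.42% and 3.19% in chromatin RNA, against 61.7% and 42.3% in run-on RNA (edgeR adjusted p = 0.502; 0.0702 to 1.0 over the alternatives). No genomic DNA library is known to be shared by chromatin and run-on RNA. Chromatin library 2 and run-on library 2 carry the same number, and the labels do not say that they share cells. Kind of RNA and experiment therefore cannot be told apart. Total RNA of sequence_12533 also varied, with 11.3%, 4.77%, 2.57% and 42.1% in libraries 1 to 4. For the extent of splicing, 9 of 116 members had an unadjusted p under 0.05, and edgeR and limma called 0 and DESeq2 9. Between the groups there was no overlap in 21 members that were higher and 33 that were lower in chromatin RNA, against 40.3% of all spliced share rows. The smallest p in each direction belonged to sequence_12490, at 5.16% and 6.94% spliced in chromatin RNA, against 0.04% and 0.32% in run-on RNA (edgeR adjusted p = 0.502; 0.00781 to 1.0 over the alternatives), and sequence_03166, at 0.077% and 0%, against 34.1% and 35.4% (edgeR adjusted p = 0.489; 0.0113 to 1.0 over the alternatives).

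The 2 integration sites were compared in total RNA to ask whether the same insert is spliced in the same way behind another promoter. Site, promoter, allele, cell line and distance to the primer of reverse transcription (287 nt at 14Rik and 221 nt at Pou5f1) differ together and cannot be told apart. Most members had the same main form at both sites, namely 50 of 63 members counted in both, and 4 of the other 13 had a main form above 60% at both sites. Over the 1954 rows tested, 47 (2.41%) were called. Of 67 form rows of 63 members, edgeR called 1 (1.49%), lower at 14Rik, 12 had an unadjusted p under 0.05, and limma called 6 and DESeq2 20. Values did not overlap in 15 form rows, 10 higher and 5 lower at 14Rik, 22.4% of the form rows, against 29.4% of all rows. The median difference was 4.68 points, with 42 form rows higher and 23 lower at 14Rik.

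The form that was called was that of sequence_12834 lacking 89 nt. It had no read among 14902 spliced reads in the 3 libraries at 14Rik, which allows a share of up to 0.0403%, against 6.19%, 31.2%, 3.02% and 41.3% in Pou5f1 total RNA. All of its spliced reads at 14Rik were of the form lacking 82 nt. The adjusted p was 0.0444 by edgeR and 3.12e-08 to 0.173 over the alternatives. The call was lost with any 1 of the 14Rik libraries left out, and without Pou5f1 library 1, 2 or 3. In the other direction the form of sequence_03339 lacking 87 nt took 100%, 99.9% and 99.7% at 14Rik, against 53.8%, 4.99%, 68.1% and 51.4% at Pou5f1, where a form lacking 39 nt made up the rest. The groups did not overlap and the Pou5f1 libraries differed widely (mean 44.6% ± 27.4, SD, n = 4). The log2 odds change of 10.33 (SE 2.23) just missed the threshold in edgeR (adjusted p = 0.0501; 2.05e-08 to 0.216 over the alternatives). In run-on RNA at Pou5f1 this form of sequence_03339 took 1.01% and 2.27%.

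With the 3 siNT libraries as the Pou5f1 side, an alternative chosen after the data were seen, edgeR called 12 of 93 form rows (12.9%), 4 higher and 8 lower at 14Rik. That share was below the 665 of 2065 rows called in the same fit (32.2%), of which 653 of 1972 were spliced share rows (33.1%). Of the 12 called form rows, 10 were also tested against untreated Pou5f1 cells, and 8 of the 10 had the same direction there. Both fits hold the same 14Rik libraries, so this agreement is not independent. Inserts of this set were named after their values were seen. The form of sequence_05840 lacking 137 nt, against 107 nt, took 76.4%, 56.9% and 61.5% at 14Rik, against 28.7%, 29.9% and 32.0% in siNT cells (edgeR adjusted p = 0.0156) and 25.7%, 19.3%, 12% and 29.6% in untreated cells (edgeR adjusted p = 0.0896). In the siRRP40 libraries, the highest at this site, it took 37.1%, 34.2% and 38.2%. The form of sequence_12149 lacking 104 nt, against 92 nt, was nearly absent at 14Rik with 0%, 0.488% and 2.90%, against 59.0%, 62.9% and 62.0% in siNT cells (edgeR adjusted p = 0.0240). Untreated Pou5f1 total RNA spread over 15.9%, 19.6%, 0.848% and 65.5%, and the test against it gave an adjusted p of 0.256 by edgeR. Library 3 at Pou5f1 had a share as low as that at 14Rik. Libraries of the Pou5f1 site spread widely in sequence_12391, with forms lacking 98 and 143 nt. The form lacking 143 nt took all 2864 spliced reads in siRRP40 and all 3922 in siNT cells, so the other form was at most 0.209% and 0.153%. It took 17.6%, 31.1% and 21.9% at 14Rik, and 5.94%, 28.5%, 25.7% and 40.4% in untreated Pou5f1 total RNA. In untreated chromatin RNA it took 96.8% and 100%, so that RNA was not low. In run-on RNA it took 30.4% and 55.6%, on few reads. The insert had a mean of 48 reads per run-on library and 121 per chromatin library, spliced and unspliced together. Its spliced reads in run-on RNA were too few for it to be counted there.

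The extent of splicing of members was lower at 14Rik in 69 of 119 inserts, with a median difference of -2.03 points, and inserts with a single form were lower in 1016 of 1768. EdgeR called 4 members, all lower at 14Rik, and 46 of all 1887 spliced share rows (2.44%). No overlap was seen in 13 members that were higher and 25 that were lower at 14Rik, against 29.7% of all spliced share rows. The named member was sequence_01427, with 0 of 46120 reads spliced at 14Rik, which allows up to 0.0130%, against 15.0%, 3.83%, 14.0% and 20.1% at Pou5f1 (edgeR adjusted p = 0.0276; 1.02e-13 to 0.152 over the alternatives). The call was lost with any 1 of the 14Rik libraries left out, and without Pou5f1 library 1. In siNT cells at the same Pou5f1 site it was 0.382%, 0.226% and 6.51% spliced. The other called members were sequence_03018, sequence_09001 and sequence_12149. In the other direction sequence_12624 was 32.4%, 39.5% and 44.2% spliced at 14Rik, against 9.40%, 0.786%, 2.51% and 6.55% at Pou5f1, without overlap and without a call (edgeR adjusted p = 0.0897; 0.000807 to 0.269 over the alternatives).

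Depletion of RRP40 was compared with siNT to ask whether loss of exosome activity exposes other forms. The knockdown itself cannot be read from these libraries, which count inserts only. Form use differed little between the groups. The main form was the same in 93 of 96 members, and none of the other 3 had a main form above 60% in both. EdgeR called 0 of 2207 rows (0%). Of 110 form rows of 96 members, 5 had an unadjusted p under 0.05, limma called 0 and DESeq2 1. Separation without overlap was seen in 11 form rows, 3 higher and 8 lower in siRRP40, 10% of the form rows, against 11% of all rows. The median absolute difference between the means was 3.94 points, and 10 form rows differed by more than 20 points.

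The form that DESeq2 called was that of sequence_13032 lacking 113 nt. It took 89.8%, 86.1% and 85.4% of spliced reads in siRRP40 cells, against 99.7%, 99.6% and 99.1% in siNT cells, where the form lacking 100 nt had 10 of 2566 spliced reads. The groups did not overlap (87.1% ± 2.35 and 99.5% ± 0.354, SD, n = 3 each; log2 odds change -4.98, SE 0.95, edgeR adjusted p = 0.375; 8.73e-05 to 0.957 over the alternatives). In the other direction the form of sequence_12412 lacking 125 nt took 99.6%, 100% and 99.4% in siRRP40 cells, against 94.7%, 84.0% and 99.0% in siNT cells (edgeR adjusted p = 0.869; 0.270 to 1.0 over the alternatives).

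The extent of splicing did not pass the test in any member either, with 0 of 127 called by edgeR and limma, 3 by DESeq2, and 6 at an unadjusted p under 0.05. The direction was lower in siRRP40 for 79 members and higher for 37, by a median of -0.68 points, and lower for 998 and higher for 519 of the 1970 inserts with a single form, by a median of -0.02 points. The smallest p was that of sequence_12486, at 2.17%, 0.791% and 1.16% spliced in siRRP40 cells, against 40.5%, 68.9% and 23.8% in siNT cells (edgeR adjusted p = 0.394; 0.000233 to 0.978 over the alternatives). In the other direction sequence_12424 was 50.9%, 25.6% and 61.5% spliced in siRRP40 cells, against 5.06%, 4.10% and 8.42% in siNT cells (edgeR adjusted p = 0.687; 0.020 to 1.0 over the alternatives). Few reads stand behind them: sequence_12486 had 862 in siRRP40 cells and 1734 in siNT cells, and sequence_12424 had 1002 in siRRP40 cells and 896 in siNT cells.

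The 7 members with 3 forms differed between groups in how many they used. Each of the 3 forms took at least 10% of the spliced reads in 1 of the 5 that had enough reads at 14Rik, 3 of 4 in Pou5f1 total RNA, 0 of 2 in chromatin RNA and 3 of 5 in run-on RNA. The count was 5 of 7 in siRRP40 and 4 of 7 in siNT cells. In sequence_13369 the form lacking 146 nt led in the siRNA experiment, with 57.6%, 64.8% and 81.2% in siRRP40 cells, against 55.5%, 67.7% and 82.5% in siNT cells. In Pou5f1 total RNA of untreated cells it took 50.4%, 25.9%, 55.3% and 36.4%. In sequence_12728 the form lacking 30 nt took 80.0% and 98.5% in run-on RNA, on 594 spliced reads in all. In siRRP40 cells it took 0.221%, 0.557% and 0.867%, against 18.8%, 1.63% and 0.563% in siNT cells, where library A stood apart. In sequence_13990 and sequence_13988 the first 2 forms had the same lengths, 124 and 112 nt removed, and the third lacked 100 and 132 nt. The form lacking 100 nt took 0%, 0.468% and 0.429% at 14Rik, against 12.2%, 25.9%, 0% and 15.1% in untreated and 10.3%, 16.7% and 18.8% in siNT cells at Pou5f1. It was 1 of the 12 rows called against siNT (edgeR adjusted p = 0.0103), and was not called against untreated cells (edgeR adjusted p = 0.239).

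Inserts with the same removed lengths did not always use them alike. For the pairs described above, the mean share of the longest-removal form differed by a median of 18.4 points at 14Rik (14 pairs), 9.98 in Pou5f1 total RNA (12), 7.04 in chromatin RNA (9), 35.3 in run-on RNA (13), 18.3 in siRRP40 (16) and 10.0 in siNT cells (18). Over all pairs of members with 2 forms the median was 37.5, 24.5, 39.5, 30.5, 33.5 and 33.6 points in the same order. These pairs share inserts and were not tested. In the triplet lacking 86 or 153 nt, the form lacking 153 nt took 11.3%, 4.77%, 2.57% and 42.1% in total RNA libraries 1 to 4 for sequence_12533. It took 21.4%, 3.20%, 17.2% and 66.8% for sequence_12653, and 19.2%, 11.9%, 6.71% and 76.6% for sequence_12773. Library 4 was the highest for each of these inserts, and the lowest was library 2 or library 3. In the triplet lacking 119 or 128 nt, sequence_12927 stood apart. Its form lacking 128 nt averaged 77.7% ± 5.88 in siNT cells, against 25.1% ± 12.5 in sequence_13167 and 22.4% ± 5.05 in sequence_13287 (SD, n = 3 libraries each). In the pair lacking 98 or 143 nt, sequence_12535 had 17.2%, 31.2% and 20.4% of the form lacking 143 nt in siNT cells, where sequence_12391 had 100%.

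Members had lower medians of spliced share, and at Pou5f1 of RNA level, than inserts with a single spliced form. The median spliced share of members was 31.3% ± 5.83 at 14Rik (SD over 3 libraries), 28.2% ± 10.0 in Pou5f1 total RNA (4), 4.02% ± 1.24 in chromatin RNA (2), 3.98% ± 3.27 in run-on RNA (2), 39.7% ± 2.86 in siRRP40 (3) and 46.2% ± 3.03 in siNT cells (3). Inserts with a single form had 36.0% ± 5.53, 35.9% ± 11.4, 5.01% ± 0.18, 5.64% ± 1.48, 44.7% ± 2.03 and 50.2% ± 3.18 in the same order. RNA per genomic DNA, on a log2 scale with 2 reads added and centred on the median insert of each library pair, had a median of 1.17 ± 0.18 for members at 14Rik and 1.20 ± 0.17 for inserts with a single form. In Pou5f1 total RNA it was 0.54 ± 0.12 for members, 0.94 ± 0.21 for inserts with a single form and -0.12 ± 0.02 for those with none. In siNT cells it was 0.56 ± 0.15 for members and 1.05 ± 0.06 for inserts with a single form. The same 2 classes had 0.68 ± 0.12 and 0.99 ± 0.03 in siRRP40 cells and 0.10 ± 0.15 and 0.42 ± 0.08 in run-on RNA. In chromatin RNA they were close, at 0.41 ± 0.11 and 0.45 ± 0.03. The genomic DNA libraries used for chromatin RNA are labelled for the total RNA libraries of the same number. Inserts needed at least 50 reads in every genomic DNA library of a group, which left 90 (siNT) to 139 members (run-on RNA). These classes were not tested against each other. In such bulk libraries fewer transcribing cells and less RNA per cell cannot be told apart.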

How the data were processed

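Reads of 17 RNA libraries had been counted per reference sequence, and the counts are used as deposited. Per the submitters' processing notes, cutadapt 1.14 and Bowtie2 2.3.4.3 were among the tools. The sources used here do not say which reads led to a spliced reference. All counts are even, which was taken to mean that both mates of a pair were counted. The length removed is 175 nt minus the length of the spliced reference.

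Form shares are percentages of the spliced reads of an insert. They were tested together with the spliced shares of all inserts in edgeR 4.0.16 (R 4.3.3; quasi-likelihood test), with the library as a factor. Inserts with 2 forms had a single row, that of the form lacking more, and those with 3 had a row for each form. Rows needed 20 reads in each library of a fit, p-values were adjusted by Benjamini-Hochberg over all rows of a fit, and 0.05 was the threshold. The scripts were tested on simulated data. Alternatives were DESeq2 1.42.0, limma 3.58.1 on log2 odds with 1 read added, TMM scaling, other filters, read pairs, a replicate block and leaving out each library.

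Named inserts are the most evenly used, the most read, those with most forms and, per comparison and direction, up to 2 called rows of largest change, or the row of smallest p where none was called, with a mean of at least 200 reads. The inserts and tests were chosen with earlier results of these data known. Of 58 samples, 14 genomic DNA libraries served for RNA levels, and 15 libraries of sorted or unsorted cells and 12 samples of other assays (ChIP-seq, PRO-seq, TT-seq) were not analysed here.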

Additional observations from a re-analysis of the deposited data

Results flagged for a closer look

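Over the 28 named inserts, 27 form shares with enough reads in the 4 Pou5f1 total RNA libraries were searched for a library far from the others, by Dixon's ratio at its 95% critical value, and 3 were found. At that value chance flags about 1 in 20 groups. The form of sequence_03906 lacking 108 nt took 80.0% in library 4, against 98.4%, 100% and 99.7% in the other libraries. The form of sequence_07414 lacking 109 nt took 63.8% in library 3, against 31.6%, 34.3% and 35.2%. The form of sequence_13477 lacking 137 nt took 35.4% in library 4, against 0% in each of the others.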

How the results depend on the processing

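The number of calls depended on the test. For form use, DESeq2 called 7 rows between total and run-on RNA, 10 between total and chromatin RNA, 4 between chromatin and run-on RNA, 20 between 14Rik and Pou5f1 and 1 between siRRP40 and siNT, and limma called 2, 1, 0, 6 and 0 in the same order. For the spliced share of members, DESeq2 called 52, 59, 9, 35 and 3, and limma 22, 17, 0, 12 and 0. Among inserts with a single form DESeq2 called 646, 714, 128, 519 and 26, and limma 294, 211, 0, 157 and 0. For DESeq2 that is 44.8%, 50.9%, 7.76%, 29.4% and 2.36% of the members tested, against 36.9%, 40.7%, 7.30%, 29.4% and 1.32%. With at least 100 reads in every library, edgeR called 3 members for the spliced share between total and run-on RNA, 5 between total and chromatin RNA and 2 form rows between the sites. With read pairs these were 1, 3 and 2. Without a filter it called 0 members between total and chromatin RNA. With siNT as the Pou5f1 side, chosen after seeing the data, it called 12 of 93 form rows and 38 members for the spliced share. In that fit 653 of all 1972 spliced share rows were called (33.1%). With single libraries left out, edgeR called 0 to 1 members for the spliced share between total and run-on RNA, 0 to 5 between total and chromatin RNA and 0 to 4 between the sites, and 0 to 2 form rows between the sites. The rows tested by edgeR can differ between these settings, and for most of them calls over all rows are not given here. Its counts of members are therefore not read as particular to members. The cause of the differences in calls was not tested.

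Members that used 2 or more forms in Pou5f1 total RNA were 37 of 39 with at least 100 spliced reads in every library, and 63 to 78 with a library left out. The longest removal was the main form in 11 of those 39, and in 24 to 33 with a library left out. Low depth limits the tests to the members named as tested.

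Total and chromatin RNA libraries of the same number, the sites and the siRNA letters share only a number in the labels, while total RNA library 4 and run-on library 1 share a genomic DNA library. Over all rows, deviations from the group means correlated at r = 0.0934 and 0.0765 for total and chromatin RNA numbered 2 and 3, and at -0.0765 and -0.0934 for the crossed numbers, which mirror them since chromatin RNA has 2 libraries. For total RNA library 4 and run-on library 1 r was -0.00695, although over the members' form shares these correlated at 0.651, against 0.158 to 0.360 for the other total RNA libraries. Form shares of total RNA library 4 correlated as highly with siNT libraries A and C, at 0.664 and 0.658. Over all rows r was -0.0581, 0.0195 and -0.0333 between the sites and 0.0494, -0.0147 and 0.0208 for siRNA letters A to C. With the replicate block edgeR called 0 form rows and 0 members for the spliced share between the sites, and 0 members for the spliced share between total and chromatin RNA. For sequence_03166 the log2 odds change of the spliced share between chromatin and run-on RNA was 0.025 with the block, against -10.37 without it. In that block run-on library 2 stood alone. Among the alternatives for named inserts, 237 kept direction and side of the threshold, 25 passed it, 21 no longer did and 1 was reversed.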
